A study of Mus musculus with 8 samples.

Results

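Parvalbumin (Pvalb, Entrez gene 19293) and phospholamban (Pln, Entrez gene 18821) were measured together on 8 spotted arrays, where they are 2 of 20 named genes. They were chosen by the annotation of their probes in the table of the series, numbers 79 to 84 for Pvalb and 73 to 78 for Pln. Each probe occupies 1 spot of a grid of 9 rows and 16 columns, so that every array holds 6 spots of each gene.

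Parvalbumin is a small cytosolic protein of fast muscle fibres that takes up calcium after a contraction and so speeds relaxation. Phospholamban sits in the membrane of the sarcoplasmic reticulum, where it holds back the calcium pump SERCA2a of slow, cardiac and smooth muscle until it is phosphorylated. The pair therefore stands for calcium removal in opposite kinds of fibre, Pvalb in fast ones and Pln, in rodents, in heart and slow-twitch muscle.

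RNA came from whole muscles of CD-1 mice, 4 to 5 weeks old, for which the labels name no treatment and no engineered allele. The slow muscle was the soleus and the fast muscle the flexor digitorum brevis (FDB), and each RNA was labelled either after amplification to cRNA or, un-amplified, as cDNA from 10 micrograms of total RNA. A dye-swap experiment set fast against slow RNA on 2 pairs of arrays, 1 pair for each kind of RNA, with the dyes Cy3 and Cy5 exchanged within a pair. A loop experiment used 4 arrays to connect all muscles and kinds of RNA in a ring, named here by muscle (S or F, slow or fast) and kind (A or U, amplified or un-amplified) as SA/SU, SU/FA, FA/FU and FU/SA with the Cy3 RNA first. The labels do not say how many animals were used, so p-values here rest on a spread between samples that may be only technical. In whole muscle, fewer fibres of a type and less RNA per fibre cannot be told apart.

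The labels of the dye-swap pairs are in doubt. Ratios that the table of the series lists for one pair matched the scanner files of the other pair in 97.6% to 100% of values, within a tolerance of 0.0003 natural-log units. The first pair, in what follows, is the one labelled amplified in the scanner files, and the second the one labelled un-amplified there. Results that separate the kinds of RNA are given with the labels of the files and then with those of the table. Over all features, 80.7% of gene spots on the dye-swap arrays and 79.9% on the loop arrays were usable in both channels. The muscle labels were checked against the fibre markers on the array. The slow myosin heavy chain Myh7 (log2 fast/slow ratio -3.01, adjusted p = 0.000112) and slow troponin C, Tnnc1 (-1.35, adjusted p = 0.0240), were lower in the muscle labelled fast. The fast myosin heavy chain Myh1 was higher there (1.72, adjusted p = 0.00444). The other fibre markers did not pass, namely slow troponin I (Tnni1, -0.71) and the fast genes Mylpf (0.47), Tnnc2 (0.31), Myh4 (0.48) and Tnni2 (0.12), of which Myh4 (-1.32) and Tnni2 (-0.33) had loop ratios below 0.

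Pvalb gave a usable ratio on every array, from 46 of its 48 spots, and Pln on the loop arrays alone, from 17 of its 48 spots. On the dye-swap arrays all 24 Pvalb spots were usable, whereas the image software had marked all 24 Pln spots as empty. On the loop arrays 22 of 24 Pvalb spots and 17 of 24 Pln spots were usable. Both missing Pvalb spots lay in rows 8 and 9 of the FU/SA array, where the sheet lists a Cy3 integral of 0. None of the usable loop spots of either gene held saturated pixels.

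Pvalb signals of the first pair stood nearer to the local background than those of the second. By signal over background, Pvalb ranked 9th to 14th of the 22 features in the channels of the first pair. On array 1 the fast RNA (Cy3) had mean pixel intensities of 5782 to 7566 over backgrounds of 2259 to 3512, a median signal over background of 2.21. The slow RNA on that array (Cy5) had 2976 to 3679 over 852 to 1314, a median of 2.90. On array 2 the fast RNA (Cy5) had 4764 to 6260 with a median signal over background of 7.55, and the slow RNA (Cy3) had 2688 to 3759 with a median of 4.15. The fast channel was thus the brighter one under both dyes, and its spots did not overlap those of the slow channel on either array. The median over features of log2 Cy3/Cy5 was 0.21 on array 1 and 0.035 on array 2. How many other features had channels without overlap was not counted. On array 1, all 6 spots of the fast channel lay within 2 SDs of their local background, which was the case for no Pvalb spot of the other channels.

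In the second pair the same probe stood far above background. On array 1 the fast RNA (Cy3) reached 41177 to 51813 against 2266 to 2732 for the slow RNA (Cy5), with median signals over background of 313 and 530. On array 2 the fast RNA (Cy5) had 16175 to 19841 and the slow RNA (Cy3) 1613 to 2154, with medians of 353 and 107. Here too the fast channel was the brighter one under both dyes and the channels did not overlap, with the dyes of the file headers. On array 2 the file name gives the other dye, which would exchange its fast and slow channels. The median over features of log2 Cy3/Cy5 was 1.00 on array 1, toward the fast channel, and 0.40 on array 2, toward the slow channel. Overlap was not counted for the other features.

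**Figure D1:**
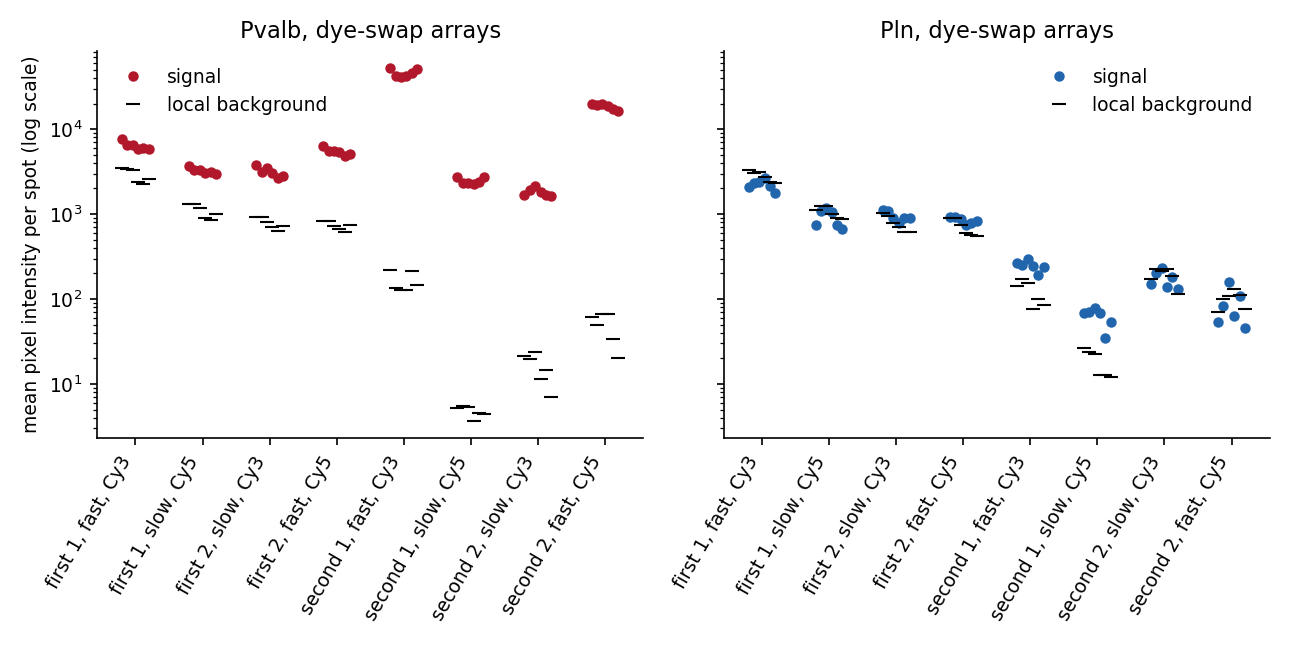
Mean pixel intensity (log scale) of each of the 6 spots of Pvalb (left, red) and Pln (right, blue) in the 8 channels of the dye-swap arrays, with the local background of each spot as a black dash. Labels give the pair, the array, the muscle and the dye. Pvalb spots lie above their background in every channel, with median signal over background from 2.21 to 530, and Pln spots lie at or near theirs, from 0.767 to 3.21.

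Pln was not well above background on any dye-swap array. In the first pair its 24 channel values gave signals between 0.625 and 1.48 times the local background, and the channel medians ran from 0.767 in fast RNA on array 1 to 1.22 in fast RNA on array 2. In the second pair single values lay between 0.483 and 5.41 times the background. The highest medians there were 1.91 for fast and 3.21 for slow RNA on array 1, where intensities of 190 to 294 and of 34.4 to 78.6 were measured. On array 2 of that pair both medians were below 1, at 0.920 for slow and 0.805 for fast RNA. All 48 channel values of Pln lay within 2 SDs of the local background. As a measure of spot quality and not of transcript level, the signal over background of Pln ranked 22nd of the 22 features in each of the 8 channels. No fast/slow ratio of Pln is therefore given for the dye-swap arrays. The authors' deposited table lists Pln ratios for 1 array of each pair, which after centring give log2 Cy3/Cy5 values of 0.053 on array 2 of the first pair and 1.02 on array 1 of the second.

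Pvalb was higher in fast muscle on all 6 arrays that set the muscles against each other. For array 2 of the second pair this rests on the dye in its header. The dye of its file name would turn its ratio toward slow muscle. Ratios are log2 fast/slow, averaged over usable spots and centred on the median over features of the array. They were 0.60 ± 0.049 (SD between 6 spots) and 0.99 ± 0.072 on the arrays of the first pair, and 3.17 ± 0.044 and 3.65 ± 0.098 on those of the second. In the loop, the SU/FA array gave 3.62 ± 0.38 (6 spots) and the FU/SA array gave 1.45 ± 0.039 (4 spots). As folds these run from 1.52 to 12.6. Myh1 and Mylpf also had ratios above 0 on all 6 arrays. For Pvalb the SD between spots of an array was at most 0.38, and the array ratios ran from 0.60 to 3.65. The SD between spots reflects repeats within an array and does not measure the spread between arrays or animals.

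The arrays of a pair resembled each other and the pairs did not. Averaged over both dyes, the log2 fast/slow ratio of Pvalb was 0.79 for the first pair and 3.41 for the second, and the dye-balanced loop estimate was 2.54. The mean was 2.25 ± 1.33 (SD, n = 3 replicate ratios) with an SE of 0.46 from limma, a 95% confidence interval of 1.32 to 3.17 and an adjusted p of 0.000223, or 4.75-fold higher in fast muscle. That SE came from a variance pooled over all features and was the same for every feature with 3 replicate ratios. It does not reflect the spread of the Pvalb ratios alone. The test called 5 of 21 features, or 23.8%. That call did not survive without the second pair (1.67, adjusted p = 0.182) or when each feature kept its own variance in place of the pooled one (adjusted p = 0.349), nor under loess (1.89, adjusted p = 0.102) or with 1 array's dye taken from its file name in place of its header (1.03, adjusted p = 0.486). The low ratio of the first pair came with a lower signal over background than in the second, as given above. Array 2 of the first pair, where no Pvalb spot lay within 2 SDs of its background, gave 0.99. The part of that background in the ratio was not tested.

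**Figure D2:**
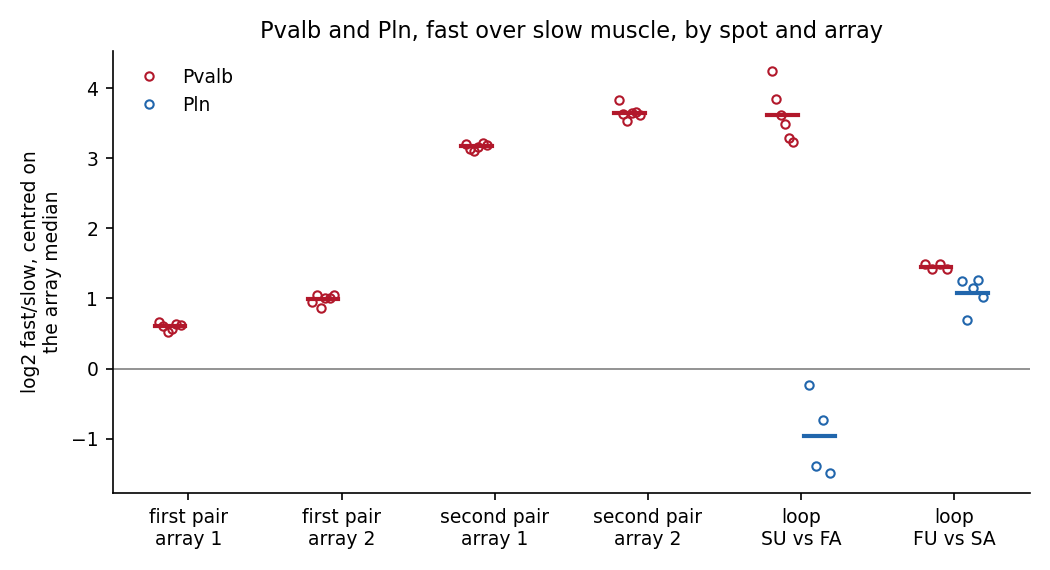
Log2 fast/slow ratio, centred on the array median, of every usable spot of Pvalb (red) and Pln (blue) on the 6 arrays that compare the muscles, with bars at array means. SU, SA, FU and FA stand for slow (S) or fast (F), un-amplified (U) or amplified (A) RNA. With the dyes of the file headers all Pvalb spots lie above 0, with array means from 0.60 to 3.65. Pln has no usable spot in the dye-swap pairs and lies on opposite sides of 0 on the 2 loop arrays, at -0.96 and 1.08.

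The loop places 4 RNAs in an order of Pvalb signal. Each RNA was read on 2 arrays under different dyes, as an integral intensity over the spot. Slow amplified RNA had integrals of 188013 to 450758 (median 257751, 10 spots) and slow un-amplified RNA 237712 to 807318 (median 522774, 12 spots). Fast un-amplified RNA had 1666064 to 3111596 (median 2028936, 10 spots) and fast amplified RNA 3435483 to 7470286 (median 5354162, 12 spots). Both fast RNAs lay above both slow ones with no overlap, and fast amplified lay above fast un-amplified RNA, whereas the ranges of the slow RNAs overlapped. These integrals were neither centred nor scaled between arrays, and each range pools the spots of 2 arrays. On all 4 arrays the median feature was higher in the un-amplified channel. How many other features separate in this way was not counted.

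The 6 Pvalb spots form a run of rows 4 to 9, and along it the values of several loop arrays shifted. On the SU/FA array, the slow channel went from 237712 in row 4 through 303741, 379472, 449244 and 634353 to 771817 in row 9. The fast channel went from 3561491 to 5707964 over the same rows. The log2 fast/slow ratio was 4.25 in row 4 and 3.23 in row 9, and these were the highest and the lowest of the 6 spots. On the FA/FU array the centred log2 ratio of amplified over un-amplified RNA likewise went from 2.14 in row 4, its highest, to 1.75 in row 9, its lowest. On the SA/SU array that ratio was -0.60 in row 4 and -0.12 in row 9. On the other loop array between the muscles, the 4 usable spots stayed between 1.42 and 1.49.

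Fitted on the loop arrays alone, with terms for muscle, amplification and dye, Pvalb was higher in fast muscle by 2.54 log2 units (SE 0.73, 95% confidence interval 1.02 to 4.06, adjusted p = 0.0166), a 5.80-fold difference. All 21 features shared this SE, from a variance pooled over them. In this fit 3 of 21 features were called, or 14.3%. Fits that left out an array, here and below, had no dye term. Pvalb was also called without the SA/SU array (2.54, adjusted p = 0.00348). It was not called without the SU/FA array (2.20, adjusted p = 0.376), the FA/FU array (2.54, adjusted p = 0.0957) or the FU/SA array (2.87, adjusted p = 0.357), nor with no centring (2.73, adjusted p = 0.223), loess (2.07, adjusted p = 0.133) or marked spots kept (1.96, adjusted p = 0.515), nor with each feature's own variance (2.54, adjusted p = 0.662).

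Pln took opposite sides on the loop arrays that compare the muscles. On the SU/FA array its log2 fast/slow ratio was -0.96 ± 0.59 (SD between 4 spots), with spots from -1.49 to -0.24. On the FU/SA array it was 1.08 ± 0.24 (5 spots), with spots from 0.69 to 1.27. In both cases the un-amplified RNA was the higher one, whichever muscle it came from. Its integral, taken as already background-subtracted, exceeded the background integral in 2 of 4 spots on the SU/FA array and 3 of 5 on the FU/SA array. The fit gave a fast/slow difference of 0.057 log2 units (SE 0.73, adjusted p = 0.976). With a 95% confidence interval from -1.46 to 1.58, a difference of that size in either direction was not detectable on these arrays. The sign turned without the SU/FA array (-0.082) and with marked spots kept (-0.12).

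The Pln integrals followed the kind of RNA. Fast amplified RNA had 17645 to 37566 (median 27999, 7 spots) and slow amplified RNA 18396 to 34179 (median 27202, 10 spots), ranges that largely coincide. Slow un-amplified RNA had 41972 to 90130 (median 63093, 9 spots) and fast un-amplified RNA 72340 to 233969 (median 107419, 8 spots), which overlap each other and lie above every amplified value. These integrals are not centred, and on all 4 arrays the median feature was also higher in the un-amplified channel, with array medians of log2 Cy3/Cy5 of -0.94 (SA/SU), 0.34 (SU/FA), -0.51 (FA/FU) and 0.72 (FU/SA). The un-amplified channels carried background integrals, of 51740 to 73830 on the FA/FU array, for example, where Pln had 165580 to 233969. The sum of integral and background was a median of 2.89 times the background for slow un-amplified RNA beside slow amplified RNA and 2.03 times beside fast amplified RNA. For fast un-amplified RNA these medians were 3.83 beside fast amplified and 2.01 beside slow amplified RNA. In the amplified channels the background integral of usable Pln spots was listed at 0, except for 1 spot with 1793.

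Most spots without any probe also gave signal in the un-amplified channels. Each array has 12 such spots. In the un-amplified channels of the loop, 4 of 48 were listed at 0 and 26 reached or passed the lowest Pln spot of the same channel. In the amplified channels 35 of 48 were listed at 0 and 13 reached the lowest Pln spot. On the SU/FA array, all 12 spots without a probe passed the lowest Pln spot of the un-amplified channel, with a median of 486649 against 50326 for Pln. How much of the Pln integral came from such signal was not tested.

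**Figure D3:**
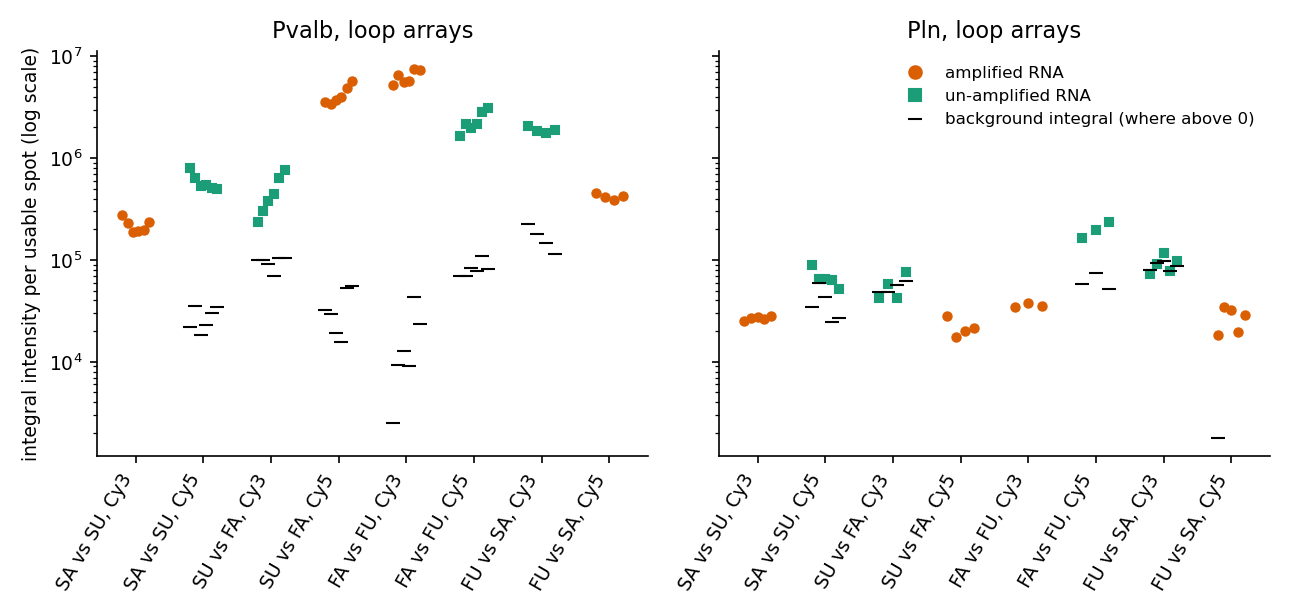
Integral intensity (log scale) of each usable spot of Pvalb (left) and Pln (right) in the 8 channels of the loop arrays, in orange circles for amplified and green squares for un-amplified RNA. Black dashes are background integrals above 0, and SA, SU, FA and FU stand for slow (S) or fast (F), amplified (A) or un-amplified (U) RNA. Pvalb separates the muscles, with all fast channels at or above 1666064 and all slow ones at or below 807318, on integrals not scaled between arrays. Pln separates the kinds of RNA, with amplified channels at or below 37566 and un-amplified ones at or above 41972, on integrals that are not centred.

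Between the kinds of RNA, the fitted loop effects of the genes had opposite signs, and neither passed the test. Pvalb had an amplified over un-amplified log2 ratio of -0.47 ± 0.18 (SD between 6 spots) within slow muscle (SA/SU) and 1.97 ± 0.15 (6 spots) within fast muscle (FA/FU). These arrays lie on opposite sides of 0, also before centring (-1.41 and 1.46). Each ratio rests on a single array, and the SD between its spots does not measure the spread between arrays. The fitted effect over both muscles was 0.92 log2 units (SE 0.52, 95% confidence interval -0.16 to 1.99, adjusted p = 0.143). The fit called 9 of 21 features, or 42.9%. Without the SA/SU array, and so with no dye term, Pvalb was among the calls (1.38, adjusted p = 0.0249). The effect was 0.15 under loess (adjusted p = 0.734), 0.29 with no centring (adjusted p = 0.678), 0.46 with dim features left out (adjusted p = 0.421) and 0.57 without the FA/FU array (adjusted p = 0.420).

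For Pln the amplified over un-amplified ratio was below that of the median feature on all 4 loop arrays. The same held for Csrp3, Myh6, Ppp2ca and the unnamed feature of probes 97 to 102. The log2 ratio of Pln was -0.36 ± 0.35 (5 spots) within slow muscle and -1.95 ± 0.25 (3 spots) within fast muscle. It was -0.96 ± 0.59 (4 spots) for FA over SU and -1.08 ± 0.24 (5 spots) for SA over FU. Before centring, the same arrays gave -1.30, -2.46, -1.31 and -1.80. The fitted effect was -1.09 log2 units (SE 0.52, unadjusted 95% confidence interval -2.16 to -0.01), and its adjusted p of 0.0991 missed the threshold of 0.05. It passed without the SA/SU array, and so with no dye term (-1.33, adjusted p = 0.0282). With no background subtraction it also passed (-1.64, adjusted p = 0.0119), and under loess it was 0.093. In the main fit the effects of Csrp3 (-2.95), Myh6 (-1.77) and probes 97 to 102 (-1.46) lay further below 0.

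Solved within each kind of RNA, the loop gave fast/slow log2 ratios for Pvalb of 3.76 in amplified and 1.32 in un-amplified RNA. For Pln the corresponding values were -0.74 and 0.85. The dye-swap pairs ordered Pvalb the other way under the labels of the scanner files, with 0.79 in the amplified and 3.41 in the un-amplified pair.

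With these labels the mean Pvalb ratio of dye swap and loop was 2.28 ± 2.09 (SD, n = 2) within amplified RNA (adjusted p = 0.0865) and 2.36 ± 1.48 (n = 2) within un-amplified RNA (adjusted p = 0.204). Subtracting the un-amplified from the amplified ratio gave -2.62 for the dye swap and 2.44 for the loop, with a mean of -0.088 (95% confidence interval -4.91 to 4.73, adjusted p = 0.992). None of 13 features was called for the difference by limma (0 at an unadjusted p below 0.05, and 0 with each feature's own variance), which is 0%. The counts were also 0 of 13 within amplified and 0 of 20 within un-amplified RNA, with 2 and 3 features at an unadjusted p below 0.05 and 0 and 0 with each feature's own variance.

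With the labels of the table, the dye swap and the loop gave Pvalb differences of the same sign. The ratio was then larger in amplified RNA by a mean of 2.53 log2 units (n = 2, adjusted p = 0.0174), with 2 of 13 features called, or 15.4%. Within amplified RNA the mean fast/slow ratio became 3.58 (adjusted p = 0.000239), with 4 of 20 features called, or 20%. Within un-amplified RNA it became 1.06 (adjusted p = 0.0614), with 0 of 13 called by limma, 6 at an unadjusted p below 0.05.

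**Figure D4:**
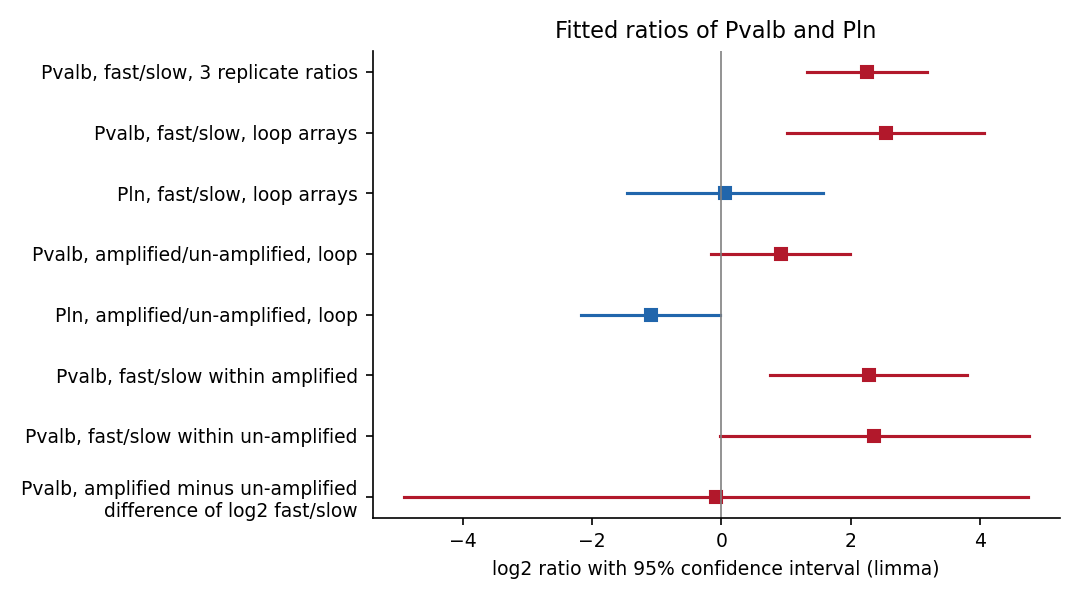
Fitted log2 ratios of Pvalb (red) and Pln (blue) with 95% confidence intervals from limma, not adjusted for the number of features, under the labels of the scanner files. The fast/slow ratio of Pvalb lies at 2.25 over 3 replicate ratios and 2.54 in the loop, and that of Pln at 0.057 in the loop. The interval of the amplified minus un-amplified difference of Pvalb runs from -4.91 to 4.73.

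The list of calcium handling and signalling genes had 7 of its 24 members on the array, and 6 could be tested between the muscles. Pvalb was the 1 that rose in fast muscle and Tnnc1, the calcium sensor of the slow thin filament, the 1 that fell. Over all features 23.8% were called in either direction. Calmodulin (Calm2, 0.81, adjusted p = 0.368), the calcineurin catalytic subunit Ppp3cb (-0.056, adjusted p = 0.942), the transcription activator CAMTA1 (-0.39, adjusted p = 0.741) and fast troponin C (Tnnc2, 0.31, adjusted p = 0.741) did not pass. The median log2 ratio of the tested members was 0.13, against -0.048 over all 21 tested features. In the loop fit 1 of 6 members rose in fast muscle, again Pvalb, and 0 fell, beside 14.3% of all features called in either direction. Between the kinds of RNA 1 of 6 was higher in amplified RNA, Tnnc1, and 0 were lower, beside 42.9% of all features called in either direction. Whether the list differs from the other features was not tested.

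The features nearest to Pvalb across the arrays were found by the root-mean-square difference in centred log2 Cy3/Cy5 ratio. Over all 8 arrays the nearest was Myh1 at 1.18 log2 units, followed by the fast regulatory light chain Mylpf at 1.92 and Tnnc2 at 1.95. Myh1 had a loop fast/slow ratio of 2.52 beside 2.54 for Pvalb, whereas Mylpf had 0.86 and Tnnc2 0.14. Over the 4 loop arrays the nearest to Pln was the unnamed feature of probes 97 to 102 at 0.56, followed by the phosphatase subunit Ppp2ca at 0.86 and matrix Gla protein (Mgp) at 0.93. Their loop fast/slow ratios were 0.023, -0.19 and 0.73, beside 0.057 for Pln. Their amplified over un-amplified values were -1.46, -0.36 and -0.62, of which that of probes 97 to 102 passed limma's test (adjusted p = 0.0257). All of these values share the arrays on which the near features were chosen, so their likeness follows from the choice. Pvalb and Pln themselves differed by 3.02 log2 units over the loop arrays.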

How the data were processed

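The members and lists were chosen with earlier results of these data known. Per the file headers, the dye-swap files hold pixel intensity per spot with background intensity beside it, from version 5.5 of the image software, which the labels name as ImaGene. Spot areas and background SDs stand in these deposited files as signal values, with marks on empty and poor spots. The deposited loop sheets hold integral intensity, taken as already background-subtracted, background integrals, a median pixel ratio and the fraction of unsaturated pixels. The software behind the sheets was not given in the sources used here. Values of the deposited series table are the authors' ratio of Cy3 over Cy5. Matching it to the spots placed all 132 probes. The header of array 2 of the second dye-swap pair gives the other dye than its file name, and the header was used.

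Dye-swap signals were corrected by normexp (offset 50). Log2 ratios of usable spots were averaged per feature, and arrays were centred on the median over features. limma 3.58.1 in R 4.3.3 tested all features (two-sided, moderated variances), with p-values adjusted by Benjamini-Hochberg and a threshold of 0.05. In the main fits between the muscles, in the loop and within amplified RNA, moderation pooled the variance fully over features. Replicate ratios were the 2 pair means and the loop estimate. Loop fits had terms for muscle, amplification and dye, with the muscle-by-amplification interaction as residual. Loop fits that left out an array had terms for muscle and amplification only, so dye was not corrected in them. The steps were tested on simulated data. Named genes were Pvalb, Pln, the 3 nearest features of each, members of the calcium list and genes a value turns on. Alternatives changed background correction, signal measure, centring, spot summary, marked spots, dim features, variance model, labels, dye and arrays. The number of arrays limits precision. No sequence is printed.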

Additional observations from a re-analysis of the deposited data

Results flagged for a closer look

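In the loop, the amplified over un-amplified log2 ratio of Pvalb was -0.30 in slow and 2.14 in fast muscle when solved for each muscle, opposite directions whose difference was not tested within the loop. With the labels of the series table, the amplified minus un-amplified difference of its fast/slow ratio was 2.53 and passed limma's test (adjusted p = 0.0174, n = 2, the same sign in the dye swap and the loop). With the labels of the scanner files that difference was -0.088.

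The fast/slow log2 ratio of Pln in the loop was -0.74 within amplified and 0.85 within un-amplified RNA. The directions are opposite and the difference was not tested.

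Of the spots without a probe, 3 at the foot of the first grid column were bright, and they were chosen after their values were seen. In the un-amplified channels of the loop their mean was 2.54 to 7.62 times the median usable gene spot, and in the amplified channels 0.0803 to 0.134 times. In the first dye-swap pair, whose files are labelled amplified, the same spots had 3.41 to 10.9 times the median gene spot, and in the second, labelled un-amplified, 0.0816 to 0.150 times. What these spots hold, and whether they bear on the labels, was not tested.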

How the results depend on the processing

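Values are log2 ratios with limma's adjusted p. Of 105 recomputed values, 73 kept both direction and side of the threshold, and the cause of the changes below was not tested. Pvalb between the muscles lost its call under loess (1.89, 0.102), with each feature's own variance (2.25, 0.349) and with the dye of the file name (1.03, 0.486); leaving out a pair or the loop gave 1.67 to 2.97. In the loop it lost its call with no centring (2.73), loess (2.07), marked spots kept (1.96) and own variances (2.54, 0.662); leaving out an array gave 2.20 to 2.87. Pln between the muscles turned to -0.12 with marked spots kept and to -0.15 when spots at or below their background integral were left out, an alternative chosen after seeing the data; leaving out an array gave -0.082 to 0.20. The amplification effect of Pln passed with no background subtraction (-1.64) and turned to 0.093 under loess; leaving out an array gave -1.33 to -0.80, and 0.57 to 1.38 for Pvalb, whose effect was 0.15 under loess and 0.29 with no centring.

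The difference of the Pvalb ratio between kinds of RNA turned to 0.018 with no centring, 2.65 with the authors' ratios and table labels, 1.74 with the dye of the file name, 2.53 with table labels, and 2.62 with table labels and median pixel signal, chosen after seeing the data. Within amplified RNA Pvalb passed with table labels (3.58) and with the authors' ratios and table labels (3.82). Within un-amplified RNA it passed with no background subtraction (2.32), integral signal and median pixel ratio (2.47), no centring (2.50) and the median of the spots (2.32). It also passed with dim features left out (2.52) and median pixel signal, chosen after seeing the data (2.48). With the authors' ratios and table labels, which exchange the dye-swap pairs, it passed at 1.17. Counts of called features fell from 5 to 1 (loess) and 0 (own variances) between the muscles. In the loop they fell from 3 to 0 under no centring, loess and own variances, and for amplification from 9 to 4, 0 and 0. Within un-amplified RNA they rose from 0 to 3 with no centring and 1 under loess. With dim features left out, Pln, the Pvalb difference and Pvalb within amplified RNA had no value.

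Array medians removed by centring lay between -0.94 and 1.00 log2 units. Ratios compare the RNAs of the same array, but no pairing by animal was possible because the labels give no replicate numbers. Those used follow the order of the samples. On the dye-swap arrays, signal over background was lowest for Pln and, among the values of Pvalb, in the first pair.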
